A study of Mus musculus with 18 samples.

Results

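The genes described here are the type I interferon response genes, a list of genes known to be switched on when cells receive alpha or beta interferon. The list named 43 genes by symbol, with the Oas and Ifi200 families left out, and 41 of them were matched on the array among 19505 genes in all. Ifi44 and Ddx60 were not analysed here. RNA of marrow cells that the labels call mesenchymal stromal cells (marrow precursors of bone and fat) was hybridised to 18 arrays, each from a different mouse. At 12 weeks of age there were 5 BALB/c and 5 NeuT mice, and at 24 weeks 4 BALB/c and 4 NeuT mice. The NeuT transgene is an activated rat Erbb2 (HER2/neu) that causes mammary tumours, BALB/c mice without it are the controls, and the labels name no treatment. Per the labels the 12-week NeuT mice were at an early and the 24-week NeuT mice at a late stage of breast tumour formation, so the transgene and the tumours cannot be told apart. The cells came from femurs and tibias after bead depletion of cells carrying CD45, Ter119, CD11b, CD11c, CD3, Gr1 or B220, and flow cytometry was used to check for CD45- CD29+ CD44+ cells. The comparisons ask how the levels of these genes differ between NeuT and BALB/c mice at 12 and at 24 weeks, and whether the size of the difference depends on age.

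Type I interferons bind a receptor made of Ifnar1 and Ifnar2, whose kinases Jak1 and Tyk2 phosphorylate STAT proteins. Stat2 then joins Irf9 in a complex that enters the nucleus and binds the interferon-stimulated response element (ISRE), a short promoter sequence shared by many of the genes listed here. Cells make the interferons themselves after sensors such as cGAS with STING, the RIG-I-like receptors or Toll-like receptors detect nucleic acids. In bone marrow these genes are expressed at a basal level by stromal, myeloid and lymphoid cells, and part of them also respond to interferon gamma.

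Promoter windows from 250 bases before to 50 bases after the transcription start were taken from RefSeq (GRCm38.p6) for 31 of the 41 genes. The ISRE core, GAAA then any 2 bases then GAAA, was searched on both strands with overlapping matches counted, and it was found in windows of 17 of the 31 genes (54.8%) against 3.99% of 27025 genes with a window. The core of the other STAT-binding element, TTCNNNGAA, was found in 8 of the 31 genes (25.8%) against 9.55% of all genes. Of the 5 genes with a window that differed between NeuT and BALB/c mice at either age, 3 held an ISRE core, and 14 of the 26 others did. A match is a description of the letters in the window. The 160 bases before the start are shown for 3 genes that were higher in NeuT mice (Trim30a, Slfn5 and Ifi44l) and for 3 widely used interferon-response genes that did not pass the test (Isg15, Ifit1 and Ifit3), each 5′ to 3′ in the direction of its gene, with ISRE core matches in capitals. All but Ifi44l were chosen after their values were seen.
Trim30a, chr7:104465194-104465353, minus strand: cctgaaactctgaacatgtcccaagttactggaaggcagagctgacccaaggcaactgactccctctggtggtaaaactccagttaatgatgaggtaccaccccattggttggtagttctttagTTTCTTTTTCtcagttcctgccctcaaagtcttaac
Slfn5, chr11:82951942-82952101, plus strand: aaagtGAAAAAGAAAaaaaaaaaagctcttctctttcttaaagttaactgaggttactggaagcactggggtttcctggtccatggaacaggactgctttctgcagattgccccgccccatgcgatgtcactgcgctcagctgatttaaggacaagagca
Ifi44l, chr3:151762892-151763051, minus strand: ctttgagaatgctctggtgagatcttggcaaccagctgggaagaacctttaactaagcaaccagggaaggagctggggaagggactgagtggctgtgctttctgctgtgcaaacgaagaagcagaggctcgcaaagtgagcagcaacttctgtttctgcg
Isg15, chr4:156200819-156200978, minus strand: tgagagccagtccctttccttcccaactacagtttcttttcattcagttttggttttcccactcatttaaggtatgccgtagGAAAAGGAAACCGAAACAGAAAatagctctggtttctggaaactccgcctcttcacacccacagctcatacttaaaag
Ifit1, chr19:34640729-34640888, plus strand: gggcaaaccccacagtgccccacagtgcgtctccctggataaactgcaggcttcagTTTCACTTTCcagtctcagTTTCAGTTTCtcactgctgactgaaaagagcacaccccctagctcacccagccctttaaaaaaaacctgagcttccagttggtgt
Ifit3, chr19:34583369-34583528, plus strand: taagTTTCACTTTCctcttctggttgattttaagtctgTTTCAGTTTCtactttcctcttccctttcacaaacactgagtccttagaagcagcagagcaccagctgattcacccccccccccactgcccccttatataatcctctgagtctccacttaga
Trim30a and Slfn5 have 1 match each in these stretches, Ifi44l has none, Isg15 has 3 that overlap end to end, and Ifit1 and Ifit3 have 2 each.

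Median log2 signals over all genes lay between 8.43 and 8.56 in the 18 arrays, and any 2 arrays correlated at 0.978 to 0.997 across genes. The median log2 signal of the negative controls was 7.35 and their 95th percentile 10.5. Of the 41 genes, 3 (Mx1, Rtp4 and Parp9) had a mean under the control median, 33 lay between these marks and 5 (Isg20, Ifitm3, Gbp3, Gbp7 and Sp100) lay above both. Where a group mean falls under that of the controls, a log2 difference compares signals and does not give the size of a change in transcripts. The stromal label was checked against 13 measured markers of mesenchymal and CXCL12-abundant reticular cells, of which Lepr, Col3a1, Foxc1 and Lum had means under the control median. Ptprc, which encodes the depleted antigen CD45, had a mean log2 signal of 12.1, and the granulocyte genes Elane and Mpo had means of 14.0 and 13.9, so RNA of blood cells was present in these preparations. In such a mixture, fewer cells of a type and less RNA per cell cannot be told apart. The array called replicate 4 of the 12-week NeuT mice, whose title and description give different mouse numbers, had the lowest median correlation with the others (0.987), followed by replicate 3 of the 24-week BALB/c mice (0.988) and replicate 1 of the 24-week NeuT mice (0.991). Replicate numbers only name arrays.

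At 12 weeks, 6 of the 41 genes (14.6%) were higher in NeuT than in BALB/c mice and none was lower, by limma with an adjusted p under 0.05 over all genes. Over all genes 3.15% were higher and 0.687% lower. The 6 were Slfn5, Ifi44l, Trim30a, Rtp4, Zbp1 and Ifitm3, with differences of 1.27-fold to 1.74-fold. At 24 weeks 5 genes (12.2%) were higher and none lower, against 1.18% higher and 0.22% lower over all genes. These were Ifi44l, Rtp4, Ifi27, Dhx58 and Parp12, with differences of 1.30-fold to 1.89-fold. At an unadjusted p under 0.05 (limma) there were 14 of the 41 genes at 12 weeks, with Gbp3 the only lower one, and 18 at 24 weeks. Over all 19505 genes, 4103 at 12 weeks and 2579 at 24 weeks had such a p, in either direction. Rtp4 and Ifi44l passed at both ages, which 0.426% of all genes did in the same direction. The median log2 difference of the 41 genes was 0.11 at 12 weeks and 0.17 at 24 weeks, beside medians over all genes of -0.025 and -0.00014. Values above 0 were found for 33 of the 41 genes at each age and for 28 at both, against 42.6%, 49.9% and 29.5% of all genes.

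**Figure D1:**
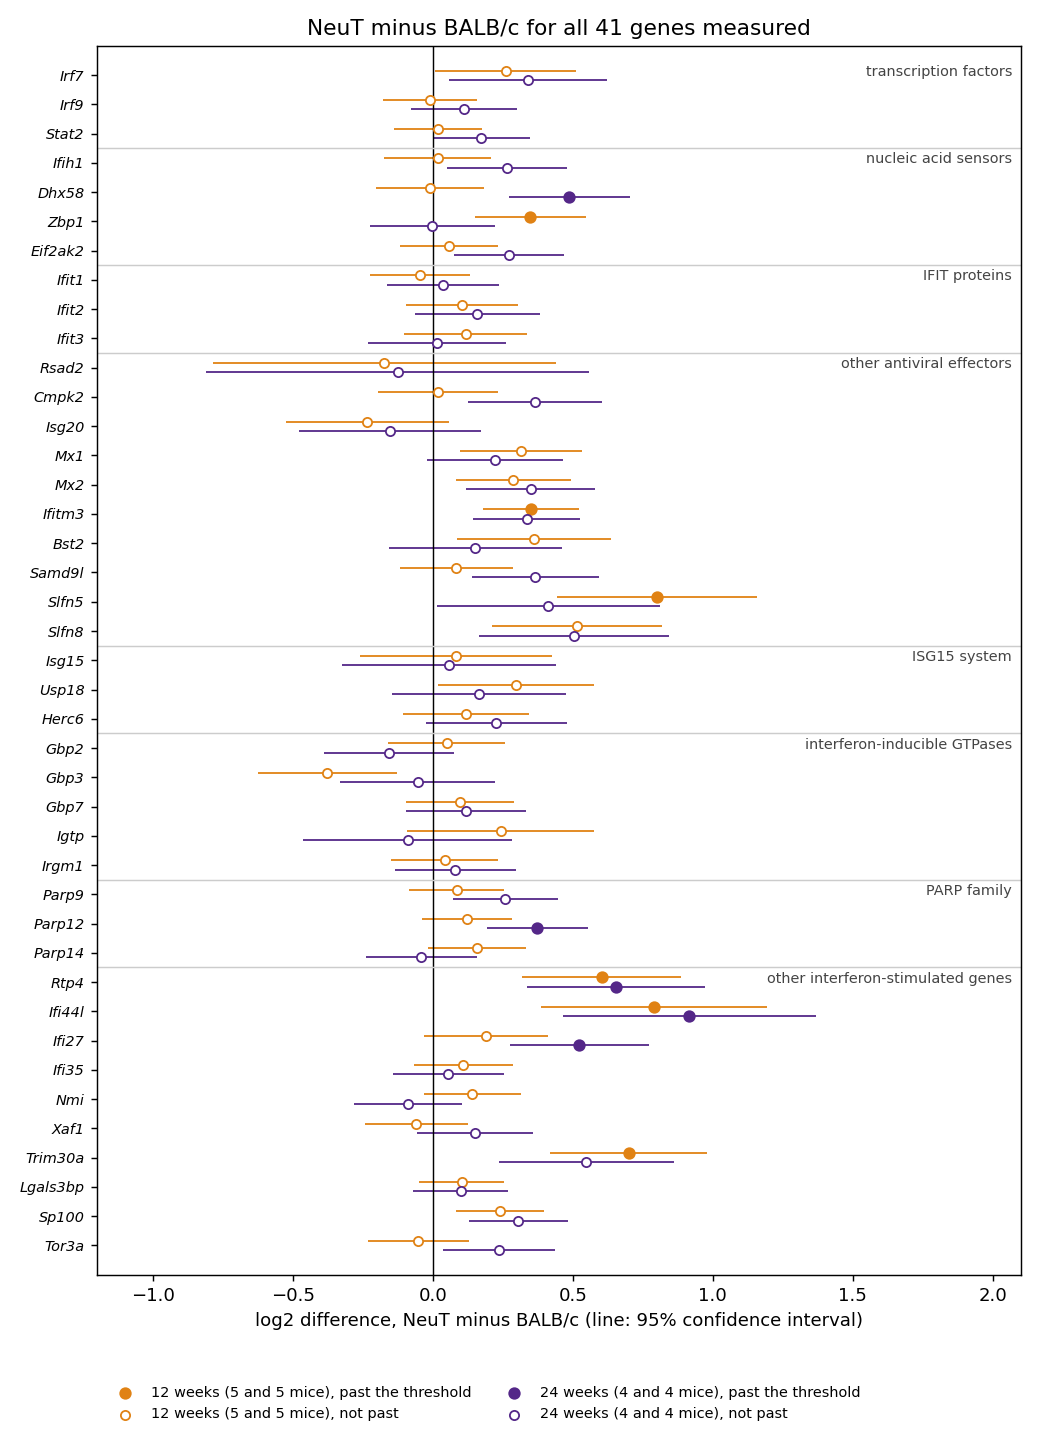
Log2 difference between NeuT and BALB/c mice (x axis) for each of the 41 genes (y axis), grouped by role, at 12 weeks (orange) and 24 weeks (purple). Circles are differences of group means from limma, lines are 95% confidence intervals, and filled circles are genes past the threshold. Most circles lie a little to the right of 0, the filled ones lie between 0.35 and 0.92, and the IFIT genes, Isg15 and Rsad2 lie near 0.

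These counts moved with the arrays and with the fit. Without 1 array at a time the count at 12 weeks lay between 1 (without BALB/c replicate 2, when Trim30a alone passed) and 9 (without NeuT replicate 5, 8 of them higher and Gbp3 lower), and it was 3 without NeuT replicate 4. At 24 weeks it lay between 0 and 7. It was 0 without BALB/c replicate 1 or 3 or without NeuT replicate 1 or 4, 1 without NeuT replicate 3 and 2 without BALB/c replicate 2. With mean levels of the neutrophil and B cell marker lists as covariates none of the 11 calls remained. Their adjusted p in limma lay from 0.548 to 0.759 at 12 weeks and from 0.862 to 0.863 at 24 weeks. Irf7, Stat2 and Ifih1, called in neither fit, also had 0.862 at 24 weeks with the covariates. The share of all genes called in the covariate fit is not given here. The lost calls therefore cannot be read as particular to these genes. At 24 weeks the covariate fit gave log2 differences of 0.57 for Ifi27, 0.35 for Parp12, 0.54 for Rtp4, 0.32 for Dhx58 and 0.38 for Ifi44l, beside 0.52, 0.37, 0.66, 0.49 and 0.92 without covariates. At 12 weeks it gave 0.46 for Rtp4, 0.40 for Trim30a, 0.39 for Slfn5, 0.32 for Ifi44l, 0.16 for Zbp1 and 0.10 for Ifitm3, beside 0.60, 0.70, 0.80, 0.79, 0.35 and 0.35. A further quantile normalisation took the share of higher genes among all calls from 82.1% to 67.4% at 12 weeks and from 84.3% to 69.3% at 24 weeks.

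Rtp4, a chaperone of G protein-coupled receptors, passed at both ages. Its log2 signals at 12 weeks were 7.15, 6.81, 6.94, 6.86 and 7.01 in the BALB/c mice and 7.30, 7.55, 7.53, 8.16 and 7.23 in the NeuT mice. At 24 weeks they were 7.10, 6.97, 6.94 and 7.36 in the BALB/c mice and 7.45, 7.76, 7.72 and 8.06 in the NeuT mice. The groups did not overlap at either age, and replicate 4 was the highest NeuT array both times. The log2 differences were 0.60 ± 0.14 (SE, adjusted p = 0.0172, limma) at 12 weeks and 0.66 ± 0.15 (adjusted p = 0.0372) at 24 weeks. The BALB/c means of 6.95 and 7.09 were under the control median, so these values compare signals only.

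Ifi44l, a member of many published interferon signatures, had the largest difference at 24 weeks. At 12 weeks its log2 signals were 7.39, 7.79, 7.59, 7.67 and 7.64 in BALB/c and 8.04, 8.43, 8.38, 9.28 and 7.91 in NeuT mice. At 24 weeks they were 7.67, 7.56, 7.66 and 8.17 in BALB/c and 8.95, 8.13, 8.58 and 9.07 in NeuT mice. The groups were apart at 12 weeks, and at 24 weeks the highest BALB/c array lay just above the lowest NeuT array. The gene rose 1.73-fold at 12 weeks (log2 difference 0.79 ± 0.19, adjusted p = 0.0251, limma) and 1.89-fold at 24 weeks (0.92 ± 0.22, adjusted p = 0.0396). The BALB/c signals began at 7.39, just above the control median of 7.35, which limits these fold values.

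Trim30a, a TRIM family protein known to restrain Toll-like receptor signalling, had the smallest adjusted p of the 41 genes at 12 weeks. Its log2 signals were 9.44, 9.69, 9.65, 9.43 and 9.80 in BALB/c and 10.22, 10.26, 10.36, 10.81 and 9.85 in NeuT mice of that age. Every NeuT array lay above every BALB/c array, replicate 5 by a small margin. The gene rose 1.62-fold (0.70 ± 0.14, adjusted p = 0.00607, limma), and the call held without any single array. At 24 weeks the log2 signals were 9.93, 9.93, 9.60 and 10.06 in BALB/c and 10.57, 10.15, 10.29 and 10.70 in NeuT mice. These groups did not overlap either, but the difference of 0.55 (95% interval 0.23 to 0.86) had an adjusted p of 0.0733 by limma.

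The Schlafen genes Slfn5 and Slfn8 encode relatives of RNA- and DNA-binding proteins that limit virus replication, and RefSeq places 1 coding gene between them. Slfn5 had log2 signals of 8.59, 8.06, 8.96, 8.78 and 8.59 in BALB/c and 9.19, 9.43, 9.44, 9.97 and 8.96 in NeuT mice at 12 weeks. It rose 1.74-fold (0.80 ± 0.17, adjusted p = 0.0122, limma), the largest difference of that age. The lowest NeuT array and the highest BALB/c array almost met. At 24 weeks the signals were 8.84, 8.74, 9.02 and 9.23 against 9.80, 9.11, 9.52 and 9.05, which overlapped, with a difference of 0.41 (95% interval 0.01 to 0.81, adjusted p = 0.356). Slfn8 had signals of 8.27, 8.25, 8.37, 8.12 and 8.24 in BALB/c and 8.36, 8.85, 9.11, 8.98 and 8.54 in NeuT mice at 12 weeks. Only the lowest NeuT array fell within the BALB/c range, and the difference of 0.51 (95% interval 0.21 to 0.82) had an adjusted p of 0.0505 by limma. At 24 weeks Slfn8 was 8.37, 8.38, 7.82 and 8.69 in BALB/c and 9.17, 8.54, 8.62 and 8.94 in NeuT mice. The difference there was 0.50 (95% interval 0.16 to 0.84, adjusted p = 0.143, limma), with overlap through BALB/c replicate 4.

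Among the other antiviral effectors, 2 of 10 were higher at 12 weeks, Slfn5 and Ifitm3, and none of the 10 passed at 24 weeks (6 with an unadjusted p under 0.05, limma). Ifitm3 blocks virus entry at endosomes. At 12 weeks its log2 signals were 11.90, 11.83, 11.84, 11.82 and 11.75 in BALB/c and 12.23, 12.21, 12.14, 12.42 and 11.89 in NeuT mice. The BALB/c arrays were tightly grouped, and only NeuT replicate 5 fell among them. The gene rose 1.28-fold (0.35 ± 0.083, adjusted p = 0.0201, limma). At 24 weeks the signals were 11.77, 11.90, 11.96 and 11.81 against 12.26, 12.02, 12.22 and 12.29, without overlap. The difference of 0.34 was nearly the same but had an adjusted p of 0.0733 by limma.

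Bst2 (tetherin, which holds budding virus on the cell surface) had log2 signals of 9.76, 9.47, 9.98, 9.76 and 9.82 in BALB/c and 9.96, 10.06, 10.05, 10.78 and 9.75 in NeuT mice at 12 weeks. The NeuT array at 10.78 stood well above the rest and the groups overlapped (difference 0.36, adjusted p = 0.123, limma). At 24 weeks Bst2 was 10.05, 9.95, 9.82 and 10.00 in BALB/c and 10.08, 9.88, 10.31 and 10.15 in NeuT mice (difference 0.15, adjusted p = 0.704). Samd9l, a growth-restraining antiviral factor of haematopoietic cells, had signals of 9.95, 10.08, 10.06, 10.04 and 9.98 in BALB/c and 9.97, 10.00, 10.39, 10.05 and 10.11 in NeuT mice at 12 weeks. Those groups lay together. At 24 weeks Samd9l was 9.88, 10.00, 9.56 and 10.22 in BALB/c and 10.29, 10.16, 10.32 and 10.36 in NeuT mice (difference 0.37, 95% interval 0.14 to 0.59, adjusted p = 0.100, limma). Cmpk2, a mitochondrial nucleotide kinase, was 9.04, 9.02, 9.19, 9.41 and 9.19 in BALB/c and 9.25, 9.25, 9.31, 9.05 and 9.09 in NeuT mice at 12 weeks. At 24 weeks it was 8.61, 8.85, 8.50 and 9.08 in BALB/c and 9.03, 9.31, 9.23 and 8.91 in NeuT mice, with a difference of 0.36 (95% interval 0.12 to 0.60, adjusted p = 0.129, limma). The 24-week groups of Cmpk2 overlapped through BALB/c replicate 4. The GTPase genes Mx1 and Mx2 had differences of 0.32 and 0.29 at 12 weeks and 0.22 and 0.35 at 24 weeks, none past the threshold. All Mx1 means were under the control median.

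Of the 4 nucleic acid sensors measured, 1 was higher at each age. Zbp1, which senses left-handed nucleic acid and triggers cell death, had log2 signals of 8.45, 8.58, 8.39, 8.18 and 8.45 in BALB/c and 8.77, 8.73, 8.81, 8.99 and 8.49 in NeuT mice at 12 weeks. The groups overlapped through NeuT replicate 5. The gene rose 1.27-fold (0.35 ± 0.096, adjusted p = 0.0430, limma), and this call ended in 9 of 10 fits without 1 array. At 24 weeks its values were 8.54, 8.46, 8.86 and 8.42 against 8.61, 8.49, 8.69 and 8.47, with a 95% interval from -0.22 to 0.22. Dhx58 encodes LGP2, a RIG-I-like receptor that modulates the others. At 12 weeks it was 9.11, 9.37, 9.19, 9.02 and 9.04 in BALB/c and 9.13, 9.25, 9.26, 8.97 and 9.06 in NeuT mice, with a 95% interval of the difference from -0.20 to 0.18. At 24 weeks it was 8.87, 9.09, 8.90 and 9.20 in BALB/c and 9.63, 9.28, 9.40 and 9.71 in NeuT mice, without overlap. There the gene rose 1.40-fold (0.49 ± 0.10, adjusted p = 0.0271, limma), and the call ended in 4 of 8 fits without 1 array. Ifih1 (the double-stranded RNA receptor MDA5) and Eif2ak2 (the kinase PKR) had differences of 0.02 and 0.06 at 12 weeks and 0.26 and 0.27 at 24 weeks, and did not pass.

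Parp12 and Ifi27 passed at 24 weeks. Parp12, a mono-ADP-ribosyltransferase, was the only PARP family member of 3 to do so. Its log2 signals at 24 weeks were 9.61, 9.53, 9.42 and 9.68 in BALB/c and 9.98, 9.79, 10.03 and 9.93 in NeuT mice. At 12 weeks they were 9.70, 9.69, 9.60, 9.68 and 9.37 in BALB/c and 9.56, 9.74, 9.83, 9.79 and 9.73 in NeuT mice. The groups were apart at 24 weeks and mixed at 12 weeks. Parp12 rose 1.30-fold at 24 weeks (0.37 ± 0.087, adjusted p = 0.0361, limma) and differed by 0.12 (adjusted p = 0.380) at 12 weeks. Ifi27, a small mitochondrial protein, had signals of 9.87, 10.04, 9.75 and 10.14 in BALB/c and 10.19, 10.58, 10.57 and 10.55 in NeuT mice at 24 weeks. At 12 weeks Ifi27 was 10.14, 10.11, 9.92, 10.25 and 10.06 in BALB/c and 10.22, 10.18, 10.22, 10.71 and 10.09 in NeuT mice. The 24-week groups were apart, while at 12 weeks only NeuT replicate 4 stood above the BALB/c range. Ifi27 rose 1.44-fold at 24 weeks (0.52 ± 0.12, adjusted p = 0.0338, limma) and differed by 0.19 (adjusted p = 0.313) at 12 weeks. The 24-week calls of Parp12, Rtp4 and Ifi44l each ended in 6 of 8 fits without 1 array, and that of Ifi27 in 5 of 8.

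**Figure D2:**
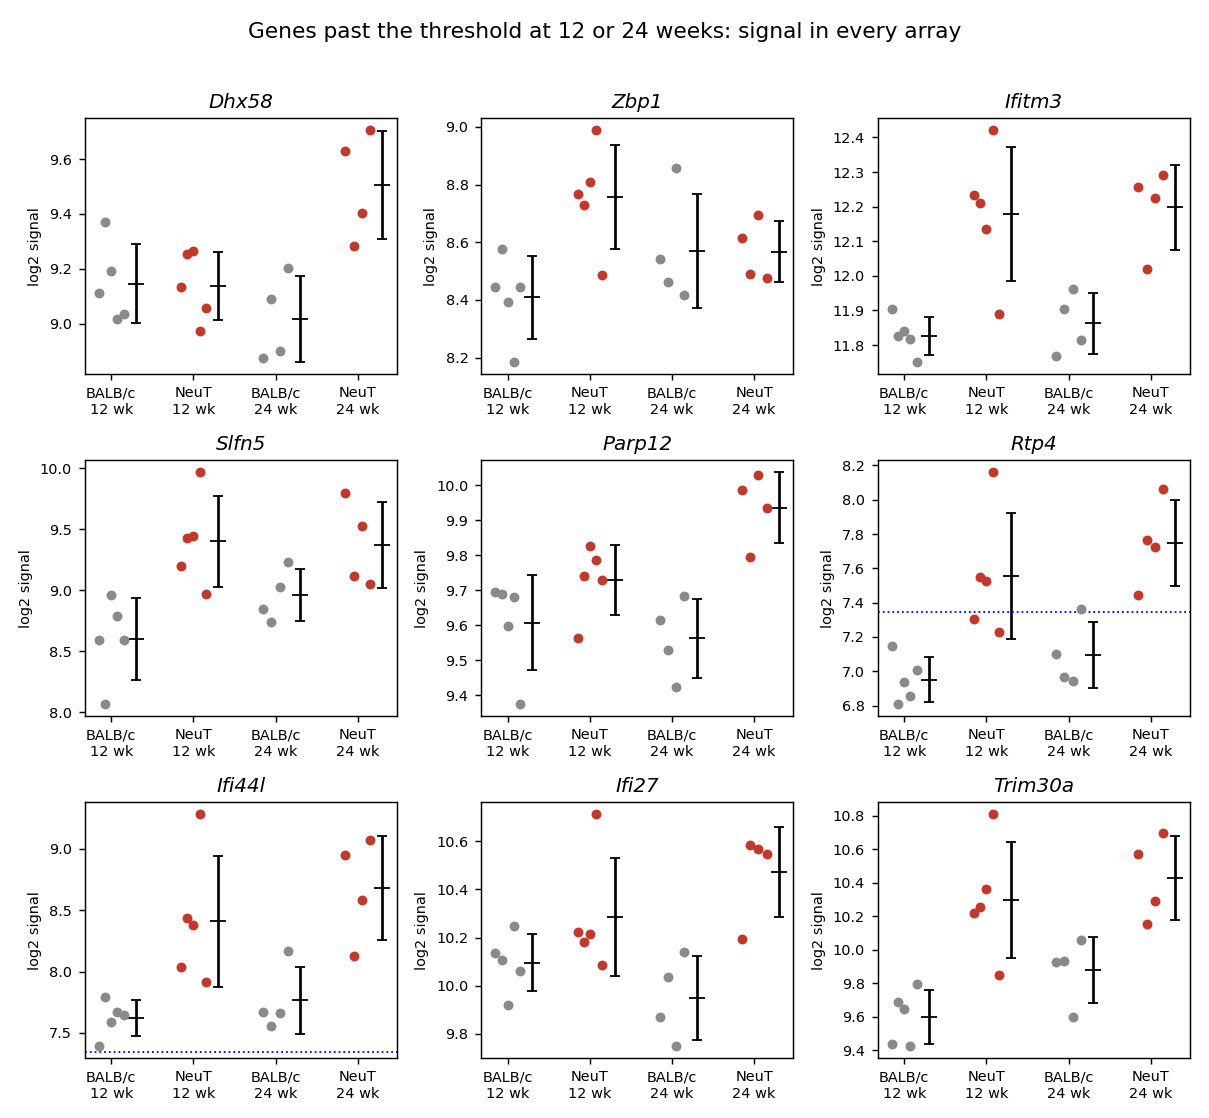
Log2 signal (y axis) in every array of the 9 genes past the threshold at either age, for BALB/c (grey) and NeuT (red) mice of 12 and 24 weeks (x axis). Black marks are means ± SD and the dotted blue line is the median of the negative controls, drawn where it falls within the axis. In the 12-week NeuT group 1 point stands highest and 1 lowest in most panels, and the Rtp4 values of BALB/c mice mostly lie under the dotted line.

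The IFIT genes, Isg15 and Rsad2, which are widely used to read an interferon response, did not pass at either age. Ifi44l, a member of many published signatures as well, passed at both. The IFIT proteins bind viral RNA and block its translation, and none of their 3 genes had an unadjusted p under 0.05 in limma at either age. Ifit1 differed by -0.05 (95% interval -0.22 to 0.13) at 12 weeks and 0.04 (-0.16 to 0.24) at 24 weeks. Ifit2 differed by 0.10 (-0.10 to 0.30) and 0.16 (-0.06 to 0.38), and Ifit3 by 0.12 (-0.10 to 0.34) and 0.02 (-0.23 to 0.26). For Ifit1 and Ifit3 these intervals leave out differences above 0.34 on the log2 scale at either age. Smaller differences are not excluded, and the interval of a called gene such as Zbp1 (0.15 to 0.55 at 12 weeks) overlaps that of Ifit3. Isg15, a ubiquitin-like protein attached to other proteins, differed by 0.08 (-0.26 to 0.42) and 0.06 (-0.32 to 0.44). Its protease Usp18 differed by 0.30 and 0.16 and its ligase Herc6 by 0.12 and 0.23, with adjusted p from 0.206 to 0.676 by limma. Rsad2 (viperin) differed by -0.17 (-0.79 to 0.44) and -0.13 (-0.81 to 0.56), the widest intervals of the 41 genes. The 24-week Rsad2 value turned to 0.13 without NeuT replicate 1 and to 0.30 without NeuT replicate 4.

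The 3 listed transcription factors did not pass (1, Irf7, with an unadjusted p under 0.05 at each age, limma). Irf7, which amplifies interferon production, differed by 0.26 (95% interval 0.01 to 0.51, adjusted p = 0.224, limma) at 12 weeks and 0.34 (0.06 to 0.62, adjusted p = 0.264) at 24 weeks. Stat2 differed by 0.02 and 0.17, and Irf9 by -0.01 and 0.11. None of the 5 interferon-inducible GTPases passed in limma (Gbp3 at 12 weeks with an unadjusted p under 0.05), and their median difference was 0.049 at 12 weeks and -0.054 at 24 weeks. Gbp3, a guanylate-binding protein, had log2 signals of 10.94, 10.97, 10.92, 10.90 and 10.72 in BALB/c and 10.52, 10.63, 10.53, 10.20 and 10.68 in NeuT mice at 12 weeks. It was 1 of the 2 genes, with the exonuclease gene Isg20, whose NeuT arrays all lay below the BALB/c arrays at that age. The Gbp3 difference was -0.38 (95% interval -0.63 to -0.13) with an adjusted p of 0.0753 by limma, and it passed as lower after a further quantile normalisation (adjusted p = 0.0371) or cyclic loess (adjusted p = 0.0390). At 24 weeks Gbp3 was 10.50, 10.77, 10.12 and 10.93 in BALB/c and 10.28, 10.74, 10.50 and 10.58 in NeuT mice (difference -0.05). Gbp7, which RefSeq places next to Gbp3, differed by 0.10 and 0.12, and Gbp2 by 0.05 and -0.16. Igtp and Irgm1, the other 2 of these GTPases, differed by 0.24 and 0.04 at 12 weeks and by -0.09 and 0.08 at 24 weeks.

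The remaining genes did not pass at either age. Sp100, a component of PML nuclear bodies, came closest, and its NeuT arrays lay above the BALB/c arrays at both ages. Its log2 signals ranged from 10.90 to 11.08 in BALB/c and from 11.10 to 11.36 in NeuT mice at 12 weeks, and from 10.86 to 11.23 and 11.30 to 11.50 at 24 weeks. The differences were 0.24 (adjusted p = 0.0764, limma) and 0.30 (adjusted p = 0.0785). Parp9 differed by 0.08 and 0.26 and Parp14, its relative that RefSeq places 1 coding gene away, by 0.16 and -0.04. Ifi35 and Nmi, whose proteins bind each other, differed by 0.11 and 0.14 at 12 weeks and by 0.05 and -0.09 at 24 weeks. Xaf1, a pro-apoptotic factor, differed by -0.06 and 0.15, and Tor3a, an ATPase of the endoplasmic reticulum, by -0.05 and 0.24. Lgals3bp, a secreted glycoprotein, differed by 0.10 at both ages.

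**Figure D3:**
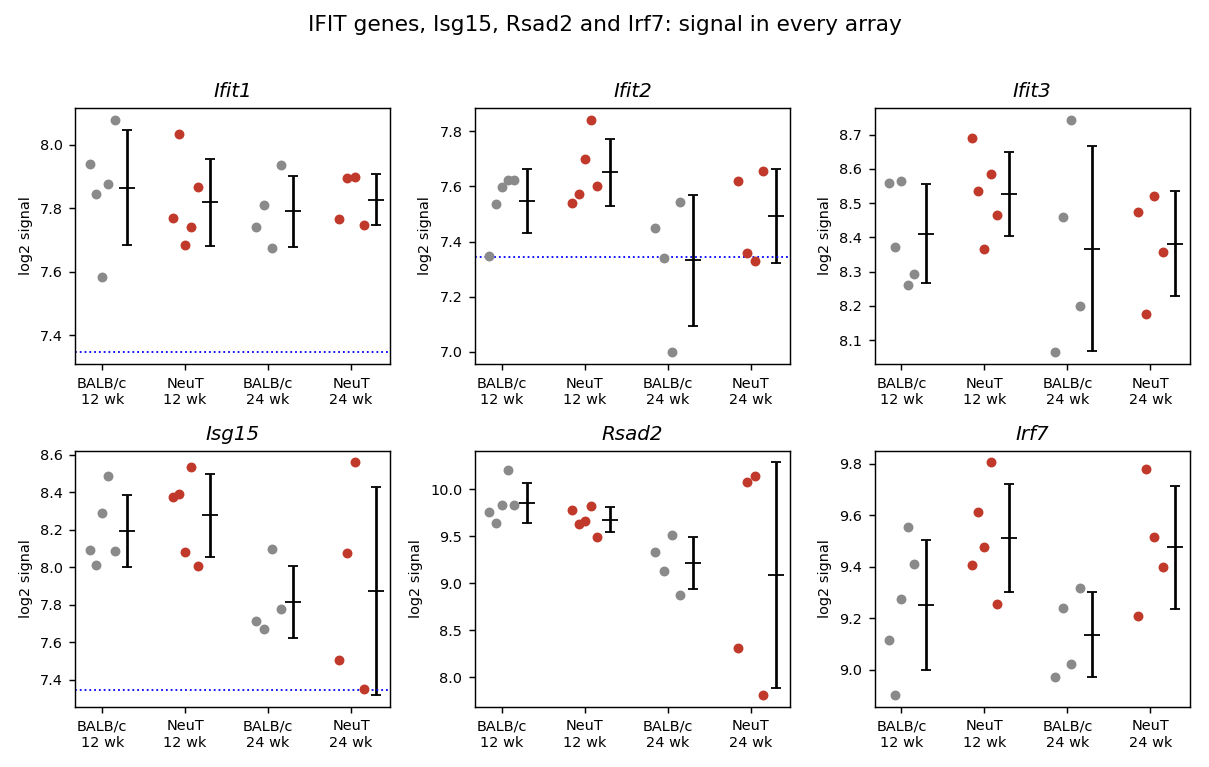
Log2 signal (y axis) in every array of Ifit1, Ifit2, Ifit3, Isg15, Rsad2 and Irf7 in BALB/c (grey) and NeuT (red) mice of 12 and 24 weeks (x axis), with means ± SD in black and the negative control median as a dotted blue line where it falls within the axis. NeuT and BALB/c values overlap in all panels, and the 24-week NeuT values of Rsad2 fall into 1 pair near 10.1 and 1 pair at 8.32 and 7.81.

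Within the 24-week NeuT group several genes were spread far more than in the other groups. Rsad2 was 8.32, 10.08, 10.14 and 7.81 there, whereas in the 12-week NeuT mice it lay between 9.49 and 9.83. Isg20 was 10.55, 11.59, 11.68 and 10.87, Igtp 7.72, 8.86, 8.77 and 8.13, and Isg15 7.50, 8.08, 8.56 and 7.35. Replicates 1 and 4 were low and replicates 2 and 3 high for each of these. The mean log2 signal of 10 B cell markers was 9.72, 10.75, 10.50 and 9.86 in the same arrays, low in the same replicates. In the 12-week NeuT group replicate 1 had the lowest B cell mean (9.47). Rsad2 was 9.77 in that array, among the higher values of the group, and Isg20 was 11.78, the highest. Isg15 was 8.38 there, in the middle of the group, and Igtp was 8.61, the lowest. The called genes Dhx58 and Ifi44l ran the other way at 24 weeks, with their highest values in replicates 1 and 4. With the neutrophil and B cell covariates the 24-week differences between NeuT and BALB/c mice were 0.44 for Rsad2, 0.16 for Isg20, 0.26 for Igtp and 0.01 for Isg15. Without covariates they were -0.13, -0.15, -0.09 and 0.06, and none passed in either fit. The part of B cell RNA was not tested apart from that fit. The grouping of replicates was noticed after the values were seen and is a description.

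In the 12-week NeuT group replicate 4 was the highest and replicate 5 the lowest array for all 6 genes called at that age. Replicate 4 was the highest of its group for 25 of the 41 genes. The 41-gene mean was 9.46 in that array and between 9.18 and 9.31 in the other NeuT arrays of 12 weeks, and between 9.09 and 9.16 in the BALB/c arrays. At 24 weeks it was 8.96 to 9.18 in BALB/c and 9.19 to 9.34 in NeuT mice. BALB/c replicate 4 was the highest of the 24-week controls for 26 of the 41 genes. Without overlap between groups, NeuT mice were higher for 5 genes at 12 weeks and 10 at 24 weeks, which is 12.2% and 24.4% of the 41 beside 4.63% and 4.95% of all genes. They were lower for 2 genes at 12 weeks and for Nmi alone at 24 weeks, beside 2.82% and 1.76% of all genes.

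Markers of myeloid cells also differed between NeuT and BALB/c mice. Of 12 neutrophil markers, 5 were higher in NeuT mice at 12 weeks and 6 at 24 weeks and none was lower. Of 12 monocyte and macrophage markers, 6 were higher and 1 (C1qc) lower at 12 weeks, and 1 was higher at 24 weeks. The chemokine receptor gene Ccr2 had the smallest adjusted p of both lists at 12 weeks (log2 difference 1.25, adjusted p = 9.02e-06, limma). The log2 of the summed monocyte signal was 13.56 to 13.78 in BALB/c and 13.89 to 14.32 in NeuT mice at 12 weeks, and 13.59 to 13.86 and 13.88 to 14.41 at 24 weeks. C1qa was the only monocyte marker with a mean under the control median. The summed neutrophil signal was 15.80 to 16.11 and 15.86 to 16.45 at 12 weeks, and 15.54 to 16.05 and 16.03 to 16.44 at 24 weeks. In the 12-week NeuT arrays the mean of the neutrophil list was lowest in replicate 5 (11.01) and highest in replicate 4 (12.13). The 6 genes called at that age were lowest and highest in the same arrays. In the 24-week NeuT arrays the neutrophil mean was lowest in replicate 2 (11.26) and highest in replicate 3 (12.09). Of the genes called at 24 weeks, Parp12, Dhx58 and Ifi44l were also lowest in replicate 2. Rtp4 and Ifi27 were lowest in replicate 1, and Parp12 alone was highest in replicate 3. The covariate fit given above held the neutrophil list and not the monocyte list. In it no call remained, and its differences for all called genes are given there. The part of these cells in the differences was otherwise not tested.

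**Figure D4:**
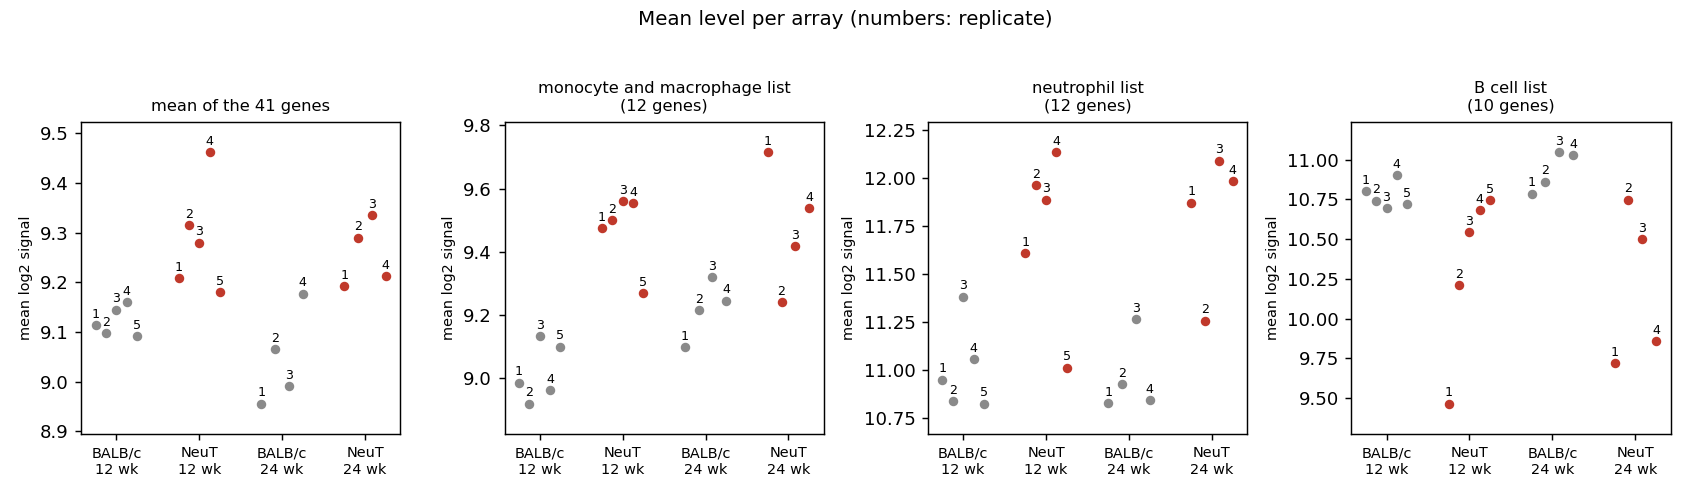
Mean log2 signal (y axis) in each array, numbered by replicate, of the 41 genes and of the monocyte and macrophage, neutrophil and B cell marker lists, in BALB/c (grey) and NeuT (red) mice of 12 and 24 weeks (x axis). The 41-gene mean does not overlap between the mouse models at either age (9.09 to 9.16 against 9.18 to 9.46 at 12 weeks), and the B cell list is low in NeuT replicate 1 at 12 weeks and in replicates 1 and 4 at 24 weeks.

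Plasmacytoid dendritic cells are the main interferon producers of blood and marrow, and they were represented by 9 measured markers with Cd209d under the control median. Of these, Lair1 was higher at 12 weeks and Spib lower at 24 weeks, and the list medians were -0.097 and -0.10. The log2 of their summed signal was 13.42 to 13.51 in BALB/c and 12.96 to 13.50 in NeuT mice at 12 weeks, and 13.39 to 13.66 and 13.20 to 13.52 at 24 weeks. None of the 10 B cell markers passed at 12 weeks (6 with an unadjusted p under 0.05, limma) and Blk alone was lower at 24 weeks, with list medians of -0.48 and -0.77. The summed B cell signal was 14.56 to 14.81 in BALB/c and 13.14 to 14.65 in NeuT mice at 12 weeks, and 14.63 to 14.89 and 13.48 to 14.64 at 24 weeks. Of 11 T and NK cell markers, Nkg7 was higher at both ages, and Cd3e, Cd2 and Gzma were lower at 24 weeks. The 13 stromal markers gave 0 calls at 12 weeks (1 with an unadjusted p under 0.05, limma), and Vcam1 alone was higher at 24 weeks. Their summed signal was 12.21 to 12.49 in BALB/c and 12.13 to 12.54 in NeuT mice at 12 weeks, and 12.10 to 12.50 and 12.32 to 12.69 at 24 weeks. Of these lists only that of B cells entered the covariate fit. The part of plasmacytoid dendritic, T and NK and stromal cells was not tested.

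The genes above and below the interferon response in the pathway were measured through 54 further genes. Of these 54, 2 were higher at 12 weeks and none was lower, beside 3.15% higher and 0.687% lower of all genes. The count of higher genes was thus near the share of all genes. None passed at 24 weeks, beside 1.18% higher and 0.22% lower of all genes. At that age 14 of the 54 had an unadjusted p under 0.05 (limma), beside 2579 of all 19505 genes. The 2 genes higher at 12 weeks both belong to the sensing of DNA in the cytoplasm. Sting1, the adaptor on the endoplasmic reticulum, had a mean log2 signal of 8.90 ± 0.11 (SD, n = 5) in BALB/c and 9.70 ± 0.26 (SD, n = 5) in NeuT mice at 12 weeks, 1.74-fold higher (adjusted p = 0.00134, limma). Cgas, the enzyme that makes its ligand, was 9.03 ± 0.058 (SD, n = 5) and 9.53 ± 0.083 (SD, n = 5), 1.42-fold higher (adjusted p = 0.00144). The arrays of the mouse models did not overlap at 12 weeks for either gene. At 24 weeks Sting1 differed by 0.36 (adjusted p = 0.244) and Cgas by 0.25 (adjusted p = 0.188), and the 2 with the smallest p of the 13 sensing genes were Ticam1 (0.40, adjusted p = 0.0724) and Tlr7 (0.57, adjusted p = 0.0785).

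None of 18 measured genes for type I and type III interferons passed at either age (3 with an unadjusted p under 0.05 at 12 weeks and 0 at 24 weeks, limma), and 8 of them had means under the control median. The smallest adjusted p at 12 weeks were those of Ifna11 (-0.22, adjusted p = 0.0804, limma) and Ifne (-0.16, adjusted p = 0.200). Ifnb1 had means from 7.29 to 7.35 in the 4 groups, at the level of the controls. The receptor genes Ifnar1 and Ifnar2 differed by -0.23 and -0.00 at 12 weeks and by 0.02 and 0.11 at 24 weeks. None of 6 interferon receptor genes, 4 genes of receptor signalling, 7 negative regulators and 5 other IRF factors passed at either age in limma, with 0, 0, 1 and 1 at an unadjusted p under 0.05 at 12 weeks and 1, 1, 3 and 1 at 24 weeks. Socs1, an inhibitor of the Janus kinases that interferon itself induces, had the smallest p of the negative regulators (-0.21, adjusted p = 0.107 at 12 weeks and -0.31, adjusted p = 0.0682 at 24 weeks). Irf4, a factor of lymphoid cells, had the smallest of the IRF factors (-0.55, adjusted p = 0.165 and -0.95, adjusted p = 0.0612). Interferon gamma (Ifng) differed by -0.07 and -0.17.

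The differences between NeuT and BALB/c mice were then compared between the ages. In the test of the difference of effects none of the 41 genes passed (limma), against 0.0103% of all genes. At an unadjusted p under 0.05 (limma) there were 6 of the 41, beside 1267 of all 19505 genes. The genes farthest apart were Dhx58, whose effect was 0.50 larger at 24 weeks (95% interval 0.21 to 0.79, adjusted p = 0.570), and Slfn5, whose effect was lower at 24 weeks by a log2 value of -0.39. Zbp1 had a difference of effects of -0.35 (95% interval -0.65 to -0.05, adjusted p = 0.731). A call at 1 age and not at the other was therefore not shown to differ between the ages for any of the 41 genes.

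Between 12 and 24 weeks none of the 41 genes passed in limma, in BALB/c mice (0.579% of all genes called) or NeuT mice (0.0359%). At an unadjusted p under 0.05 (limma) there were 9 of the 41 in BALB/c mice, beside 2992 of all 19505 genes. In NeuT mice there were 11 of the 41, beside 2449 of all 19505 genes. The median change was -0.047 in BALB/c and -0.028 in NeuT mice. In BALB/c mice the smallest p were those of Isg20 (-0.57, 95% interval -0.88 to -0.26, adjusted p = 0.0713) and Cmpk2 (-0.41, 95% interval -0.64 to -0.18, adjusted p = 0.0732). The 5 Isg20 values of 12-week BALB/c mice (11.85 to 12.02) lay above the 4 values of 24 weeks (11.24 to 11.39). In NeuT mice the smallest p was that of Stat2 (0.34, 95% interval 0.17 to 0.51, adjusted p = 0.0869). Age cannot be told apart from a batch in which the mice of each age may have been processed.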

How the data were processed

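Total RNA (miRNeasy kit, biotin label) of 18 mice was measured on 1 array each. The authors deposited log2 signals per probe set, made with RMA and the Transcriptome Analysis Console per the submitters' processing notes. For these tools no version is given in the sources used here, nor is a genome build. RMA quantile-normalises arrays, so a shift shared by most genes would not show.

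Of 29129 probe sets, 19572 had 1 gene symbol, and the one with the highest mean was kept per gene (19505 genes, 55 with several probe sets, none of them among the 41). No filter on dim genes was applied, and precision is limited by the number of arrays. A mean per group was fitted to all 4 groups with limma 3.58.1 in R 4.3.3 (14 residual and 8.68 prior degrees of freedom), two-sided, with Benjamini-Hochberg adjustment over all genes at 0.05. The fit was tested on simulated data. Plots were made with matplotlib 3.10.9 (Python 3.11.15).

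Members, gene lists and tests were chosen with earlier results of these data known. Values per array are given for genes past the threshold at either age and for the 3 others with the largest difference at each age. Pathway genes are named if past the threshold, or else the 2 with the smallest p per list; others named (IFIT genes, Isg15, Rsad2, Irf7, receptors) were chosen after their values were seen. Alternatives were other normalisations, leaving out dim genes, testing all probe sets, array weights, trend and robust moderation, marker covariates, the compared groups alone and leaving out each array. Leaving aside the 3 arrays of lowest correlation was chosen after seeing the data.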

Additional observations from a re-analysis of the deposited data

Results flagged for a closer look

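In 14 of 164 groups of values (41 genes in 4 groups) the highest or lowest array stood apart from the others by Dixon's test, which flags about 1 in 20 groups by chance. In the 12-week NeuT mice replicate 4 was high for the ISG15 ligase gene Herc6 (10.90, next 10.46) and for Ifi27 (10.71, next 10.22). In the same group replicate 1 was low for Irgm1 (8.29, next 8.60) and replicate 2 for Parp9 (7.02, next 7.20). In the 12-week BALB/c mice Isg20 was high in replicate 4 (12.02, next 11.89), Gbp3 and Parp14 were low in replicate 5 (10.72, next 10.90, and 8.20, next 8.39) and Sp100 was low in replicate 2 (10.90, next 11.04).

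In the 24-week BALB/c mice Mx2 was low in replicate 1 (7.39, next 7.95) and Eif2ak2 in replicate 3 (9.06, next 9.49). In the 24-week NeuT mice Eif2ak2 was high in replicate 4 (9.80, next 9.65), Parp9 was high in replicate 1 (7.55, next 7.27), Ifi27 was low in replicate 1 (10.19, next 10.55) and Ifi35 was low in replicate 2 (10.11, next 10.20). Of the genes past the threshold, Ifi27 alone was among these, with its low 24-week array still above all BALB/c arrays of that age.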

How the results depend on the processing

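The median differences of the 41 genes stayed above 0 under every alternative, from 0.083 to 0.13 at 12 weeks and from 0.14 to 0.25 at 24 weeks. At 12 weeks the count of 6 became 11 with array weights (10 higher, 1 lower) and 0 with the marker covariates, and ranged from 1 to 9 (8 higher, 1 lower) without 1 array. At 24 weeks the count of 5 became 1 with a further quantile normalisation or cyclic loess, where Dhx58 alone remained. It was 0 with all probe sets and controls tested, with the covariates or with only the groups compared. It was 2 without the 3 arrays of lowest correlation, and ranged from 0 to 7 without 1 array. With array weights all 5 genes stayed, and Ifitm3 and Trim30a passed as higher besides. The count of 0 between ages in BALB/c mice became 4 with array weights (Stat2 and Trim30a higher, Cmpk2 and Isg20 lower), 1 with covariates, 2 with only the groups compared, 1 without the 3 arrays, and 0 to 2 without 1 array (2 without BALB/c replicate 4 of 24 weeks). In NeuT mice it ranged from 0 to 2 (2 without replicate 2 of 24 weeks). The difference of effects gave 0 calls throughout. Of 1636 values of single genes under alternatives, all of NeuT against BALB/c mice at 12 or 24 weeks, 80 lost and 24 gained a call, and 77 changed sign with no call in either fit. No called value changed sign. No paired analysis was possible because the labels give no shared replicate numbers and every array is a different mouse. Depth of signal limits Mx1, Rtp4, Parp9 and Ifit2, near or under the negative controls, and Ifi44l in BALB/c mice, whose lowest array was at 7.39. The causes of these changes were not tested.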
